A study of Mus musculus with 8 samples.

Results

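The genes described here are the sensors of the endoplasmic reticulum (ER) unfolded protein response (UPR) and the transcription factor gene that one of them activates: Ern1 (encoding IRE1), Eif2ak3 (encoding PERK), Atf6, its paralog Atf6b, and Xbp1. They were chosen by symbol, and all 5 were found among the 26166 gene symbols of the count table and among the 12427 genes that passed the filter on low counts. RNA had been prepared from the livers of 8 diet-induced obese (DIO) mice and sequenced in bulk, 1 library for each mouse. All were male C57BL/6N mice, 14 weeks old when bought, fed a diet with 60% of kcal from fat, and kept on it for 3 weeks before dosing began. The IXA4 group (n = 4) was injected intraperitoneally once daily with IXA4, a small molecule that activates IRE1, at 50 mg/kg for 8 weeks. The vehicle group (n = 4) received the solvent of DMSO, Kolliphor EL with ethanol, and saline on the same diet and schedule. Replicate numbers below are those of the columns of the count table, not of the animals. The question was how the mRNA of each sensor differed between IXA4-treated and vehicle-treated livers.

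IRE1, PERK and ATF6 span the ER membrane and are held inactive by the chaperone BiP in the ER lumen until unfolded proteins accumulate. IRE1 then cuts Xbp1 mRNA, whose rejoined form encodes the transcription factor XBP1s. PERK phosphorylates the translation factor eIF2α, which slows protein synthesis and favours translation of ATF4. ATF6 travels to the Golgi, where proteases release its cytosolic part as a transcription factor, and ATF6B is processed in the same way. In liver this response supports the secretory load of hepatocytes and touches lipid and glucose metabolism. All of these steps act on protein or on splicing, so the mRNA level of a sensor is not a measure of its activity.

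The RNA step that defines the IRE1 arm is shown first, because the gene counts do not separate its 2 products. In the GENCODE annotation of mouse build NCBIM37, Xbp1 (chr11:5420662-5425896, plus strand, 5 exons) has a coding sequence of 267 codons in transcript Xbp1-001, and of 371 codons in transcript Xbp1-201, which lacks 26 bases of exon 4. The 26 bases are printed in capitals between 18 flanking bases on each side (chr11:5424264-5424325).
Xbp1 exon 4: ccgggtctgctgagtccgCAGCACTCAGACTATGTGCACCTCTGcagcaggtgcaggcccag
IRE1 cuts within the letters CNGCAGC, after the third base, and these letters stand at both ends of the capitals as CCGCAGC and CTGCAGC. The annotation draws the gap 3 bases further downstream, which gives the same joined mRNA because CAG is repeated at both borders. Since 26 is not a multiple of the codon length, removing these bases shifts the reading frame and lengthens the protein. Counts of total reads per gene symbol add both forms, so the Xbp1 values below carry no information on the extent of splicing.

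IXA4 libraries held 16986915 to 18390185 counts, and vehicle libraries held 17399049 to 17807573. IXA4 replicate 4 stood apart from the rest, with a median correlation of log2 CPM (counts scaled to the normalized library size) of 0.963 with the vehicle libraries, against 0.974 to 0.976 for the other IXA4 libraries. It also had the lowest albumin mRNA, at 67017 CPM. The label of liver was borne out by the 6 hepatocyte markers, which summed to 80060 to 109568 CPM in IXA4 livers and 92638 to 118603 CPM in vehicle livers, with adjusted p of 0.686 to 0.912 (edgeR). Of the markers of other liver cell types, the cholangiocyte genes Krt19 and Spp1, the fibroblast gene Col1a1 and the mesothelial gene Upk1b were higher with IXA4, and the stellate cell gene Reln and the endothelial gene Kdr were lower. The 6 cholangiocyte markers together summed to 44.5 to 49.7 CPM in IXA4 livers and 26.0 to 31.1 CPM in vehicle livers, with Cftr at or near 0 in every library. Most of this sum was Spp1, at 35.0 to 40.5 CPM in IXA4 livers and 20.5 to 26.3 CPM in vehicle livers. Krt7, Epcam and Sox9 did not pass. The 6 stellate cell and fibroblast markers summed to 191 to 287 CPM in IXA4 livers and 167 to 227 CPM in vehicle livers. Dcn was the largest part of this sum, at 114 to 145 CPM in IXA4 livers and 124 to 166 CPM in vehicle livers. Col1a1 was at 41.0 to 122 CPM in IXA4 livers and 5.69 to 14.7 CPM in vehicle livers (log2 fold change 2.94). Lrat, Des, Pdgfrb and Dcn did not pass, with log2 fold changes of -0.71, -0.21, 0.24 and -0.19. The 6 mesothelial markers summed to 8.93 to 39.4 CPM in IXA4 livers and 6.99 to 21.1 CPM in vehicle livers. The 6 endothelial markers summed to 57.6 to 85.0 CPM in IXA4 livers and 72.9 to 132 CPM in vehicle livers, and the 6 macrophage markers to 176 to 314 CPM in IXA4 livers and 145 to 309 CPM in vehicle livers. The 5 plasma and B cell markers found summed to 43.5 to 59.0 CPM in IXA4 livers and 53.0 to 59.5 CPM in vehicle livers, nearly all of it Sdc1, which hepatocytes also express. The part of any such shift in the results below was not tested, and in bulk tissue fewer cells of a type cannot be told apart from less RNA per cell.

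Of the 5 genes, Eif2ak3 and Atf6b were higher in IXA4-treated livers, with edgeR's quasi-likelihood test adjusted over all genes tested. That is 2 of 5, where 3.64% of all genes tested were called higher. Eif2ak3 had the larger difference, 3.03-fold, and Atf6b was 1.78-fold higher. Xbp1 and Atf6 averaged 1.96-fold and 1.84-fold the vehicle level and did not pass, with adjusted p = 0.0684 for Xbp1 and adjusted p = 0.0659 for Atf6 in edgeR's test. Ern1, the gene of the sensor that IXA4 activates, averaged 0.834 times the vehicle level and did not pass (adjusted p = 0.633, edgeR). In Xbp1, Atf6b and Eif2ak3 every IXA4 library lay above every vehicle library, 3 of 5 genes, beside 7.44% of all genes tested, and none lay wholly below, beside 5.24%.

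**Figure D1:**
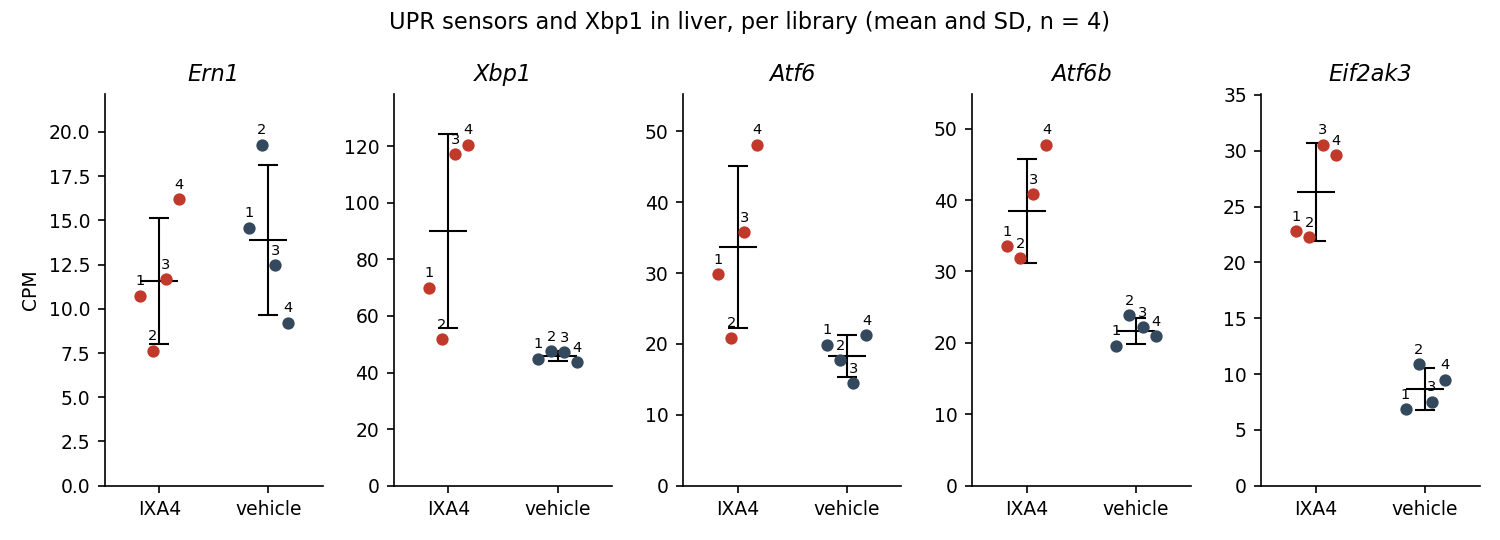
Level of each gene in CPM (vertical axes, each starting at 0) in the 4 IXA4 and the 4 vehicle libraries. Points are libraries with their replicate number, and the bar and whiskers are the mean and SD of the group. Eif2ak3, Atf6b and Xbp1 do not overlap between groups, Atf6 overlaps by 1 library, and Ern1 overlaps over most of its range.

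Eif2ak3 lies on chromosome 6 (chr6:70794509-70855239, plus strand, 17 exons) and encodes PERK, a kinase of 1114 residues by its annotated coding sequence. Eif2ak3 was at 22.8, 22.3, 30.5 and 29.6 CPM in IXA4 replicates 1 to 4, and at 6.83, 10.9, 7.50 and 9.50 CPM in vehicle replicates 1 to 4. The lowest IXA4 library was above the highest vehicle library, and within the IXA4 group replicates 3 and 4 were high and replicates 1 and 2 low. The mean was 26.3 ± 4.37 CPM in IXA4 livers and 8.68 ± 1.86 CPM in vehicle livers (SD, n = 4). The log2 fold change was 1.60 (SE 0.16, adjusted p = 1.41e-04, edgeR). By p-value Eif2ak3 ranked 21 among the 12427 genes tested, and 0.925% of genes had a higher log2 fold change. Leaving out any library kept the call, with log2 fold changes of 1.497 to 1.72 and edgeR adjusted p of at most 0.00119, and without IXA4 replicate 4 the value was 1.54.

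PERK is one of 4 kinases that phosphorylate eIF2α. The others are HRI (Eif2ak1), which responds to low heme, PKR (Eif2ak2), which responds to double-stranded RNA, and GCN2 (Eif2ak4), which responds to uncharged tRNA. None of these 3 passed the test, with edgeR log2 fold changes of -0.11 for Eif2ak1 (SE 0.09), -0.09 for Eif2ak2 (SE 0.17) and -0.08 for Eif2ak4 (SE 0.11). Counted as RPKM (CPM per kilobase of exon), the Eif2ak3 level made up 33.7%, 34.6%, 38.8% and 38.7% of the summed level of the 4 kinases in IXA4 replicates 1 to 4. In vehicle replicates 1 to 4 its share was 11.6%, 18.3%, 13.9% and 16.6%. The shares did not overlap, and Eif2ak1 had the highest mean level of the 4 kinases in both groups, at 5.89 ± 0.35 RPKM with IXA4 and 6.34 ± 0.34 RPKM with vehicle (SD, n = 4).

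The 250 bases before the start of Eif2ak3 are shown (RefSeq, GRCm38.p6, chr6:70844265-70844514, plus strand), since this gene had the largest difference among the 5. Capitals mark the letters CCAAT, read on either strand (ATTGG on the other), the core of the site that the factor NF-Y binds.
Eif2ak3 promoter: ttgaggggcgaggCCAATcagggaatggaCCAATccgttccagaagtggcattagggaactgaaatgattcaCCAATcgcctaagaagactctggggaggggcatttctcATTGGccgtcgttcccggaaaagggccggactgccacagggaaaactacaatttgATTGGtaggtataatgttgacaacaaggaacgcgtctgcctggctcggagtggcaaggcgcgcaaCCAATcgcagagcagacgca
Eif2ak3 held CCAAT at 6 places in its window of 300 bases (250 before to 50 after the start), a number reached by 26 of 32851 promoters in the table (0.0791%). At least 1 CCAAT was found in 37.4% of all promoters. This motif was added after the sequences had been seen, and a match of letters is a description, not a binding site. The search also covered, on both strands, 4 longer motifs known for UPR factors. These were ERSE (CCAAT, any 9 bases, CCACG), ERSE-II (ATTGG, any base, CCACG), UPRE (TGACGTGG) and the ATF4 motif CARE (TGATGNAAT), of which ERSE and ERSE-II contain a CCAAT on 1 strand. Their letters were in none of the windows of Eif2ak3, Atf6b, Xbp1 and Ern1. They were in 0.119%, 0.0365%, 0.676% and 0.965% of all promoters in that order. The short end of ERSE, CCACG, was also searched, and of these windows only that of Ern1 held it, beside 32.8% of all promoters. The promoter of Atf6 was not analysed here.

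Atf6b lies on chromosome 17 (chr17:34784091-34792019, plus strand, 18 exons) and encodes a relative of ATF6 that is also a membrane-bound precursor of a transcription factor. Atf6b was at 33.5, 31.8, 40.9 and 47.8 CPM in IXA4 replicates 1 to 4, and at 19.6, 23.8, 22.2 and 21.0 CPM in vehicle replicates 1 to 4. The groups did not overlap, and IXA4 replicate 4 was the highest library. The mean was 38.5 ± 7.32 CPM in IXA4 livers and 21.6 ± 1.80 CPM in vehicle livers (SD, n = 4). The log2 fold change was 0.83 (SE 0.13, adjusted p = 0.00279, edgeR). The call held without any 1 library, with log2 fold changes of 0.71 to 0.92 and edgeR adjusted p of at most 0.0186, and without IXA4 replicate 4 the value was 0.71. Its upstream sequence is given for comparison with that of Eif2ak3 (RefSeq, GRCm38.p6, chr17:34646896-34647145, plus strand, the same letters in capitals).
Atf6b promoter: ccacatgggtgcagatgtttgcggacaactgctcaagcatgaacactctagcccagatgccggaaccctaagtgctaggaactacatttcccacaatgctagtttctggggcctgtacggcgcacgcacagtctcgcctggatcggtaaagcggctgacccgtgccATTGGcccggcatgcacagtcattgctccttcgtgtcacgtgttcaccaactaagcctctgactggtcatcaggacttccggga
Atf6b held 1 such place, and the windows of Xbp1 and Ern1 held none.

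Atf6 lies on chromosome 1 (chr1:172634588-172797902, minus strand, 16 exons), and its product drives genes of ER chaperones. Atf6 was at 29.9, 20.9, 35.8 and 48.1 CPM in IXA4 replicates 1 to 4, and at 19.9, 17.7, 14.5 and 21.2 CPM in vehicle replicates 1 to 4. IXA4 replicate 2 lay just under vehicle replicate 4, and the other 3 IXA4 libraries were above every vehicle library. The mean was 33.7 ± 11.4 CPM in IXA4 livers and 18.3 ± 2.95 CPM in vehicle livers (SD, n = 4). The log2 fold change of Atf6 was 0.88 (SE 0.23, adjusted p = 0.0659, edgeR), close to that of Atf6b, which had a smaller standard error. Atf6 passed without IXA4 replicate 2 (log2 fold change 1.06, adjusted p = 0.00274, edgeR) and with DESeq2 (adjusted p = 0.00230), and did not pass when any other library was left out. Atf6 and Atf6b are paralogs, and how reads that match several genes were handled is not stated. Their exon sequences were not compared, so whether counts were exchanged between the paralogs was not tested.

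Xbp1 encodes the transcription factor of the IRE1 arm. Xbp1 was at 70.01, 51.8, 117 and 121 CPM in IXA4 replicates 1 to 4, and at 44.9, 47.6, 47.2 and 43.5 CPM in vehicle replicates 1 to 4. All IXA4 libraries were above all vehicle libraries, replicate 2 by the least. The highest IXA4 library was 2.33 times the lowest, while the highest vehicle library was 1.09 times the lowest. The log2 fold change was 0.97 (SE 0.25). Xbp1 passed without IXA4 replicate 2 (log2 fold change 1.17, adjusted p = 0.00141, edgeR) and with DESeq2 (adjusted p = 6.79e-04), and did not pass when any other library was left out, with a value of 0.80 without IXA4 replicate 4.

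Ern1 lies on chromosome 11 (chr11:106255964-106349166, minus strand, 22 exons) and encodes IRE1, a kinase and RNase of 977 residues. Ern1 was at 10.7, 7.64, 11.7 and 16.2 CPM in IXA4 replicates 1 to 4, and at 14.6, 19.3, 12.5 and 9.22 CPM in vehicle replicates 1 to 4. The groups overlapped over most of their range, and the highest library was 2.12 times the lowest in IXA4 livers and 2.09 times in vehicle livers. The log2 fold change was -0.26 (SE 0.26, adjusted p = 0.633, edgeR). A span of 2 standard errors on either side of it reaches -0.77 and 0.25, and these libraries do not separate differences within that span from none. Ern1 did not pass with any library left out, where the log2 fold change ranged between -0.47 and -0.06. Its paralog Ern2, an IRE1 of mucosal epithelia, had 0 counts in all 4 IXA4 libraries and in 3 vehicle libraries, and 1 count in vehicle replicate 4. A floor of 3 counts per library corresponds to 0.163 to 0.182 CPM, which bounds the level of Ern2 for counting error only.

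The same IXA4 libraries were low or high across the 5 genes. IXA4 replicate 2 was the lowest of its group in all 5, and replicate 4 was the highest in Ern1, Xbp1, Atf6 and Atf6b. Relative to the vehicle mean, IXA4 replicate 2 was -0.80 for Ern1, 0.18 for Xbp1, 0.20 for Atf6, 0.56 for Atf6b and 1.37 for Eif2ak3, all in log2 CPM. IXA4 replicate 4 was 0.27 for Ern1, 1.39 for Xbp1, 1.40 for Atf6, 1.14 for Atf6b and 1.78 for Eif2ak3 on the same scale. Eif2ak3 was thus the gene with the largest difference in both libraries, while the Atf6 difference ranged from 0.20 to 1.40 between them. The median over the 18 IRE1/XBP1s target genes listed by the study was 0.86, 0.72, 1.13 and 1.55 above the vehicle mean in IXA4 replicates 1 to 4, with replicate 2 lowest and replicate 4 highest there too. The median over its 17 ATF6 target genes was 0.57, 0.52, 0.81 and 1.32 in these libraries. The median over its 19 PERK target genes other than Atf6 was 0.03, 0.11, 0.11 and 0.10, inside a span of -0.06 to 0.08 in the vehicle libraries or just above it. The vehicle medians ranged between -0.09 and 0.05 for the IRE1/XBP1s list and between -0.10 and 0.17 for the ATF6 list. The study used these lists as they had been defined in earlier work. Their medians are given here to describe the libraries, not as independent evidence.

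**Figure D2:**
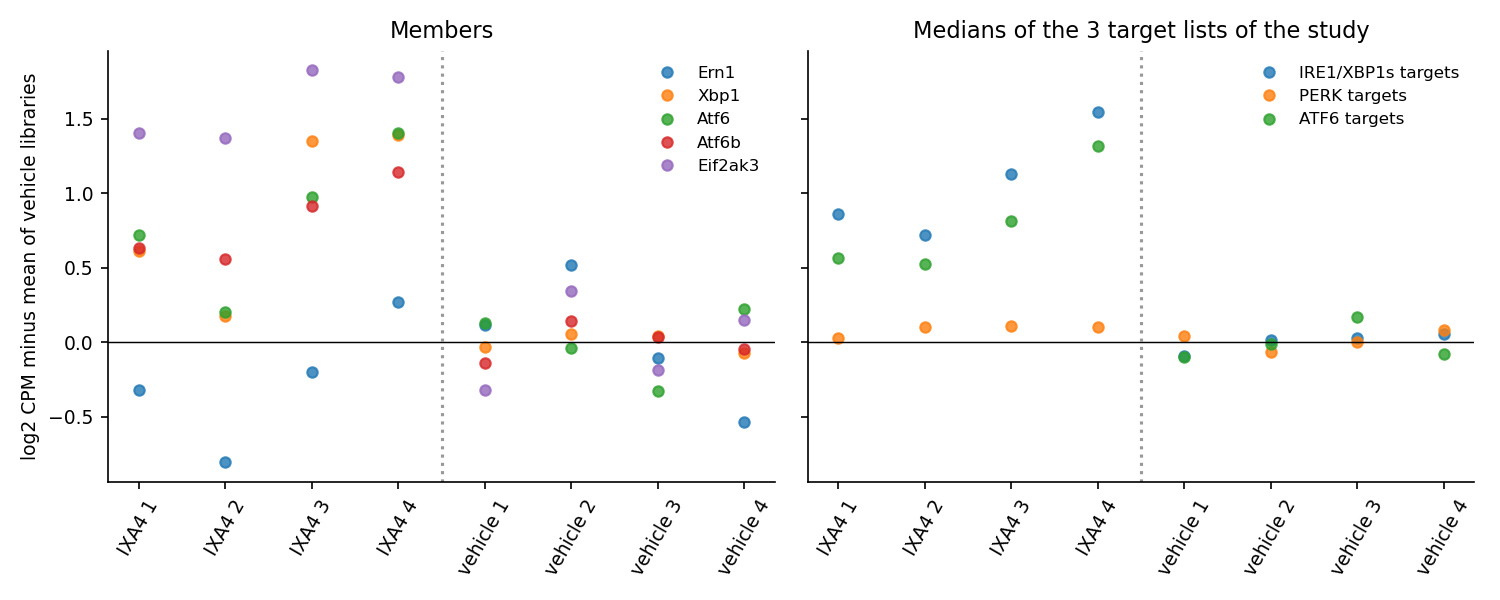
Log2 CPM of each library minus the mean of the vehicle libraries (vertical axis), for the 5 genes (left panel) and for the medians of the study's 3 target lists (right panel). Each point is 1 gene or list in 1 library, IXA4 libraries left of the dotted line and vehicle libraries right of it. Eif2ak3 is 1.37 to 1.83 above the vehicle mean in IXA4 libraries, and the PERK list lies between 0.03 and 0.11.

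To compare the genes with each other, the log2 ratio of each pair was taken within each library, which removes the scaling between libraries. The 10 pairs were each set between groups with an exact permutation test, two-sided, for which the smallest p with 4 libraries against 4 is 0.0286. This was reached by 6 pairs, with p = 0.0286 in the exact test and 0.0476 after adjustment over the 10 pairs. A pair that reached it alone would have an adjusted p of 0.286 in this test. Each of the 6 thus passed only because the others reached it too. The pairs share genes and are not independent of each other. The 6 were Ern1 with each of the other 4 genes, and Eif2ak3 with Xbp1 and with Atf6b. Ern1 reads per Eif2ak3 read were 0.471, 0.343, 0.383 and 0.548 in IXA4 replicates 1 to 4, and 2.13, 1.77, 1.66 and 0.971 in vehicle replicates 1 to 4. Eif2ak3 thus had more reads than Ern1 in every IXA4 library, and Ern1 had more than Eif2ak3 in 3 of 4 vehicle libraries. The mean log2 ratio of this pair was 1.86 lower in IXA4 livers, the largest shift of the 10.

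Ern1 was also lower relative to the transcript its protein cuts. Ern1 reads per Xbp1 read were 0.153, 0.148, 0.0998 and 0.134 in IXA4 replicates 1 to 4, and 0.324, 0.405, 0.264 and 0.212 in vehicle replicates 1 to 4. The mean difference in the log2 ratio was -1.15 for Ern1 to Xbp1, -1.09 for Ern1 to Atf6 and -1.07 for Ern1 to Atf6b. Eif2ak3 was higher relative to Xbp1 and Atf6b, with mean differences of -0.71 for Xbp1 to Eif2ak3 and -0.78 for Atf6b to Eif2ak3. Atf6 to Eif2ak3 differed by -0.77 and did not pass (p = 0.0571 in the exact test, 0.0816 adjusted over the 10 pairs), with IXA4 replicate 4 at 1.63 reads of Atf6 per Eif2ak3 read, above vehicle replicate 2 at 1.62.

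The ratios among Xbp1, Atf6 and Atf6b did not pass the test. The mean log2 ratio differed by 0.06 for Xbp1 to Atf6, 0.07 for Xbp1 to Atf6b and 0.01 for Atf6 to Atf6b, with exact p of 0.743, 0.743 and 0.971. Atf6 reads per Atf6b read were 0.892, 0.656, 0.877 and 1.01 in IXA4 replicates 1 to 4, and 1.01, 0.741, 0.653 and 1.01 in vehicle replicates 1 to 4, so the groups covered nearly the same range. The SD of this log2 ratio was 0.26 within the IXA4 group and 0.32 within the vehicle group, and differences well under that size could not be seen. With 1 library left out no pair could reach an adjusted p under 0.05, since the smallest exact p with 3 libraries against 4 is 0.0571.

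**Figure D3:**
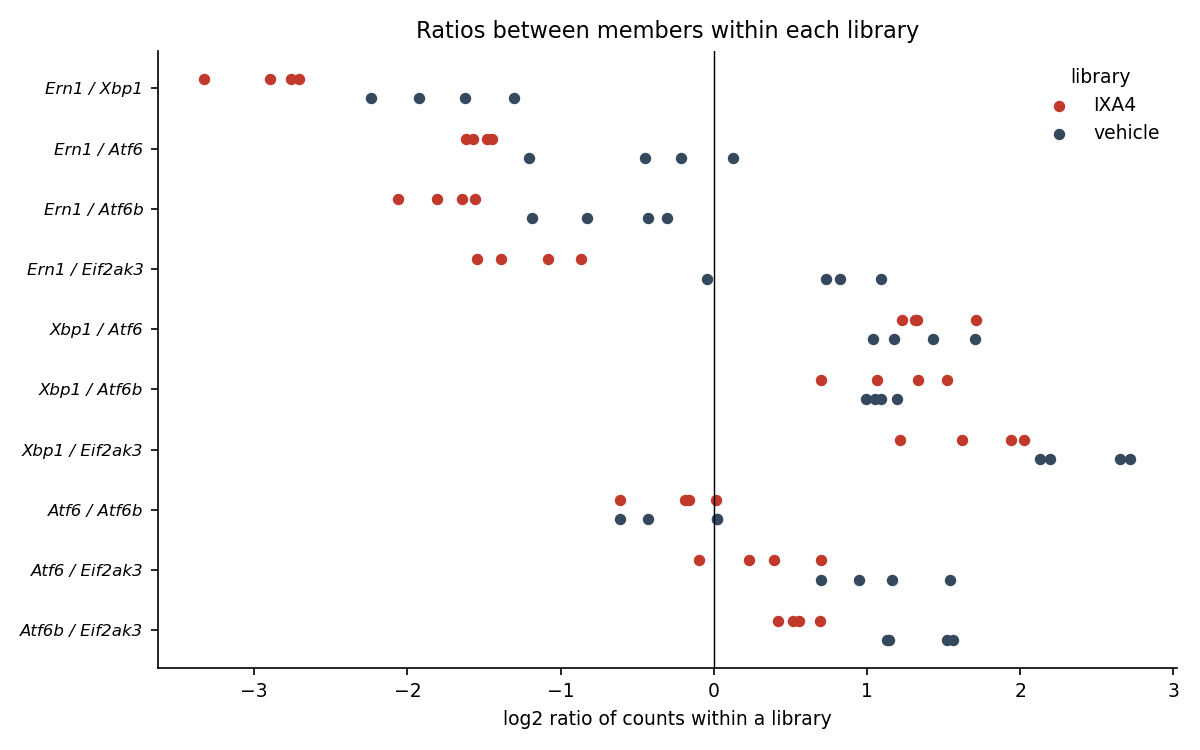
Log2 ratio of read counts between 2 genes within 1 library (horizontal axis), for the 10 pairs (rows). Each point is a library, with the IXA4 row above the vehicle row of each pair. The groups are separate in the 4 pairs with Ern1 and in the pairs of Eif2ak3 with Xbp1 and Atf6b, and overlap in the other 4.

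Levels of different genes were compared per length, as RPKM over the union of annotated exons. In IXA4 livers the order of the means was Xbp1 (27.7 ± 10.6 RPKM), Atf6b (14.0 ± 2.65), Eif2ak3 (4.84 ± 0.81), Atf6 (4.51 ± 1.53) and Ern1 (1.42 ± 0.43, SD, n = 4 throughout). Xbp1 and Atf6b overlapped, at 15.9 to 37.1 RPKM for Xbp1 and 11.5 to 17.3 RPKM for Atf6b. Eif2ak3 at 4.10 to 5.63 RPKM lay inside the range of Atf6 at 2.80 to 6.45 RPKM, and Ern1 at 0.935 to 1.98 RPKM was below both. In vehicle livers the order was Xbp1 (14.1 ± 0.59 RPKM), Atf6b (7.85 ± 0.65), Atf6 (2.45 ± 0.40), Ern1 (1.70 ± 0.52) and Eif2ak3 (1.60 ± 0.34). There Xbp1, Atf6b and Atf6 did not overlap one another, and the ranges of Atf6, Ern1 and Eif2ak3 overlapped. Ern1 thus had the lowest mean of the 5 in IXA4 livers, and in vehicle livers it could not be ranked against Eif2ak3.

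Among the 3 sensors Ern1, Atf6 and Eif2ak3, the share of their summed RPKM that fell to Eif2ak3 was 39.2 to 52.4% in IXA4 livers and 22.0 to 30.6% in vehicle livers. The share of Ern1 was 11.9 to 14.3% in IXA4 livers and 19.7 to 35.0% in vehicle livers. The share of Atf6 was 35.7 to 46.5% in IXA4 livers and 35.2 to 49.7% in vehicle livers. The shares of Eif2ak3 and Ern1 were therefore separate between groups and that of Atf6 was not. The sum itself was 7.84 to 13.9 RPKM in IXA4 livers and 4.85 to 6.73 RPKM in vehicle livers.

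**Figure D4:**
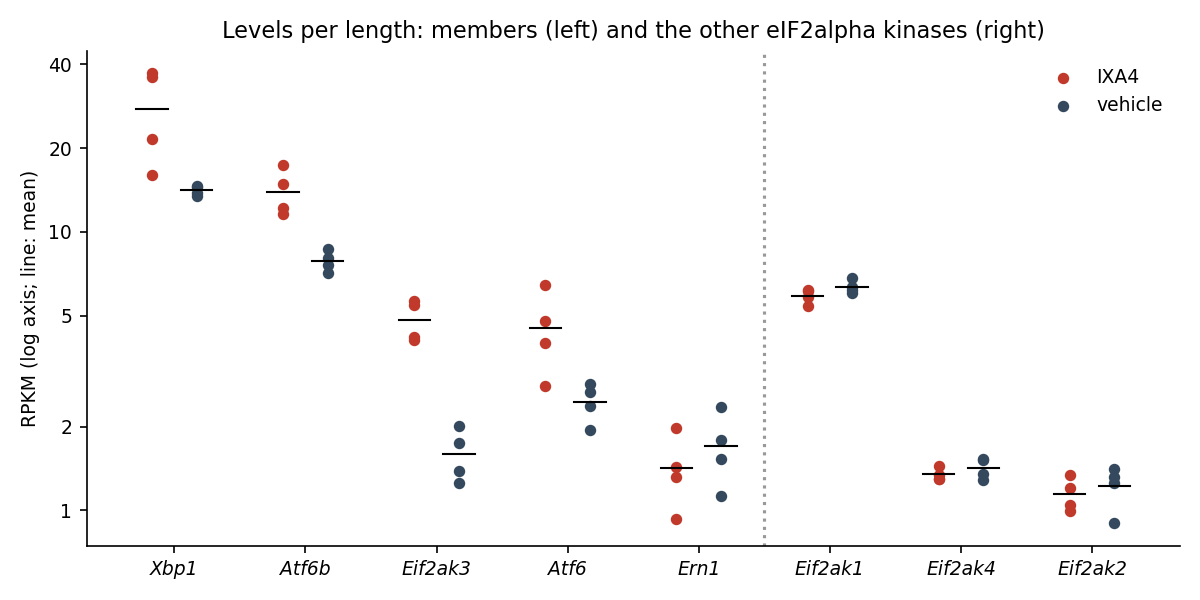
RPKM per library (vertical log axis) of the 5 genes and, right of the dotted line, of the other 3 eIF2α kinases, with IXA4 points left of vehicle points. Lines are group means. Eif2ak3 lies at 4.10 to 5.63 RPKM in IXA4 libraries, above Eif2ak2 and Eif2ak4, and at 1.26 to 2.01 RPKM in vehicle libraries.

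The genes that act with the sensors were then described in 5 lists with 43 genes, of which 42 passed the filter. In total 8 were higher and 1 was lower with IXA4 by edgeR's test adjusted over all genes, where 3.64% of all genes tested were called higher and 0.99% lower. The median log2 fold change was 0.11 over the 42 genes and -0.01 over all genes tested.

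Of 8 genes of the ER lumen that restrain or modulate the sensors, 5 were called higher, beside 3.64% of all genes tested. These 5 were most of the genes called higher in the lists, and the median log2 fold change of this list was 1.18. Hspa5, which encodes BiP, was at 1410 ± 750 CPM in IXA4 livers and 405 ± 46.9 CPM in vehicle livers (SD, n = 4, log2 fold change 1.80, adjusted p = 0.0168, edgeR). Dnajb9, the BiP cochaperone that represses IRE1, was 4.79-fold higher (adjusted p = 6.40e-05, edgeR), the largest difference in the lists. Pdia6, a disulfide isomerase that acts on IRE1, and the chaperones Hyou1 and Hsp90b1 were 2.24-fold, 4.57-fold and 2.29-fold higher. Hspa5, Pdia6, Hyou1 and Hsp90b1 were highest in IXA4 replicate 4, the library that stood apart. Hspa5 was there at 2516 CPM, against 906 to 1233 CPM in the other IXA4 libraries. Without replicate 4 the log2 fold change was 1.36 for Hspa5, 0.81 for Pdia6, 1.69 for Hyou1 and 0.79 for Hsp90b1. With it the values were 1.80, 1.16, 2.19 and 1.19, and all of these passed. Pdia5, an isomerase that acts on ATF6, was 2.25-fold higher on average without overlap and did not pass (adjusted p = 0.0782, edgeR), while DESeq2 called it (adjusted p = 1.92e-04). Sil1, the nucleotide exchange factor of BiP, was at 60.8 CPM in IXA4 livers and 59.3 CPM in vehicle livers. For each unit of summed Ern1, Atf6 and Eif2ak3 RPKM there were 29.5 to 51.6 units of Hspa5 RPKM in IXA4 livers and 17.6 to 26.9 in vehicle livers, so BiP mRNA exceeded that of the 3 sensors by more in every IXA4 library.

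Of 9 genes tested in the IRE1 arm, 1 was called higher, beside 3.64% of all genes tested, and the other 8 did not pass. Syvn1, the ubiquitin ligase of ER-associated degradation, was 4.48-fold higher (adjusted p = 0.0424, edgeR). Syvn1 was at 504 CPM in IXA4 replicate 4 and at 134 to 204 CPM in the other IXA4 libraries, and without replicate 4 its log2 fold change was 1.57, against 2.16 with it, and still passed. Those that did not pass included Traf2 and Map3k5, which relay IRE1 kinase signals, at log2 fold changes of 0.17 and 0.15. The RNA ligase that joins cut Xbp1 mRNA, Rtcb (listed as D10Wsu52e), was at 61.9 CPM in IXA4 livers and 64.3 CPM in vehicle livers. Tmbim6, an inhibitor of IRE1, was lower in every IXA4 library, at 536 ± 27.1 CPM against 588 ± 22.1 CPM in vehicle livers (SD, n = 4), and did not pass (adjusted p = 0.468, edgeR). Sel1l averaged 68.5 CPM in IXA4 livers and 42.9 CPM in vehicle livers, with overlap between groups. Its log2 fold change of 0.67 (SE 0.28) did not pass (adjusted p = 0.244, edgeR), and was 0.29 without IXA4 replicate 4. The list thus held 1 call, and its median log2 fold change was 0.17.

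Among 5 genes whose proteins bind XBP1, Foxo1, a transcription factor that drives gluconeogenesis and whose protein XBP1s can bring to degradation, was lower at 18.03 ± 2.45 CPM in IXA4 livers and 27.5 ± 2.85 CPM in vehicle livers (SD, n = 4, log2 fold change -0.61, adjusted p = 0.0121, edgeR). Pik3r1, Pik3r2, Mapk14 and Brd7 did not pass, with log2 fold changes between -0.26 and -0.03. That is 1 of 5 lower, beside 0.99% of all genes tested.

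In the PERK arm 1 of 12 genes was higher, beside 3.64% of all genes tested. Dnajc3, which encodes the PERK inhibitor P58IPK, was 1.90-fold higher (adjusted p = 0.0384, edgeR). Dnajc3 was at 280 CPM in IXA4 replicate 4 and at 138 to 168 CPM in the other IXA4 libraries. Without replicate 4 its log2 fold change was 0.64, against 0.93 with it, and still passed. The substrate gene Eif2s1 (eIF2α) had a log2 fold change of 0.24 without overlap between groups and did not pass (adjusted p = 0.345, edgeR). Downstream of eIF2α, Atf4 averaged 92.5 CPM in IXA4 livers and 71.3 CPM in vehicle livers, and the ATF4 targets Ddit3 and Trib3 had log2 fold changes of 0.65 and -0.61, none of which passed. Without IXA4 replicate 4, Atf4 passed (log2 fold change 0.51, adjusted p = 0.0128, edgeR), and Ddit3 had a log2 fold change of 0.36. The phosphatase subunits Ppp1r15a and Ppp1r15b, which reverse the phosphorylation by PERK, had log2 fold changes of -0.15 and 0.16. Beside a log2 fold change of 1.60 in the PERK gene, the median log2 fold change of the list was 0.07. The list also holds the other eIF2α kinases, the substrate gene and regulators, so its median is not a measure of PERK signaling.

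In the ATF6 arm 1 of 8 genes was higher, beside 3.64% of all genes tested. Wfs1, whose product wolframin limits ATF6 levels, was at 21.0 ± 5.01 CPM in IXA4 livers and 6.13 ± 0.75 CPM in vehicle livers (SD, n = 4, log2 fold change 1.78, adjusted p = 9.14e-05, edgeR). The proteases that cut ATF6, Mbtps1 and Mbtps2, had log2 fold changes of -0.03 and -0.07. The NF-Y subunits Nfya, Nfyb and Nfyc, which bind CCAAT, had 0.14, -0.08 and -0.27 on the same scale, and did not pass.

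The calls of Dnajb9, Wfs1 and Foxo1 held in all 13 other settings and with each library left out among them. Those of Hspa5, Pdia6, Hyou1, Hsp90b1, Syvn1 and Dnajc3 held in 6 to 9 of the 13. The 8 genes called higher became 2 without vehicle replicate 1, 2 or 4, 3 without vehicle replicate 3 and 4 without IXA4 replicate 3, and they became 9 without IXA4 replicate 4.

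**Figure D5:**
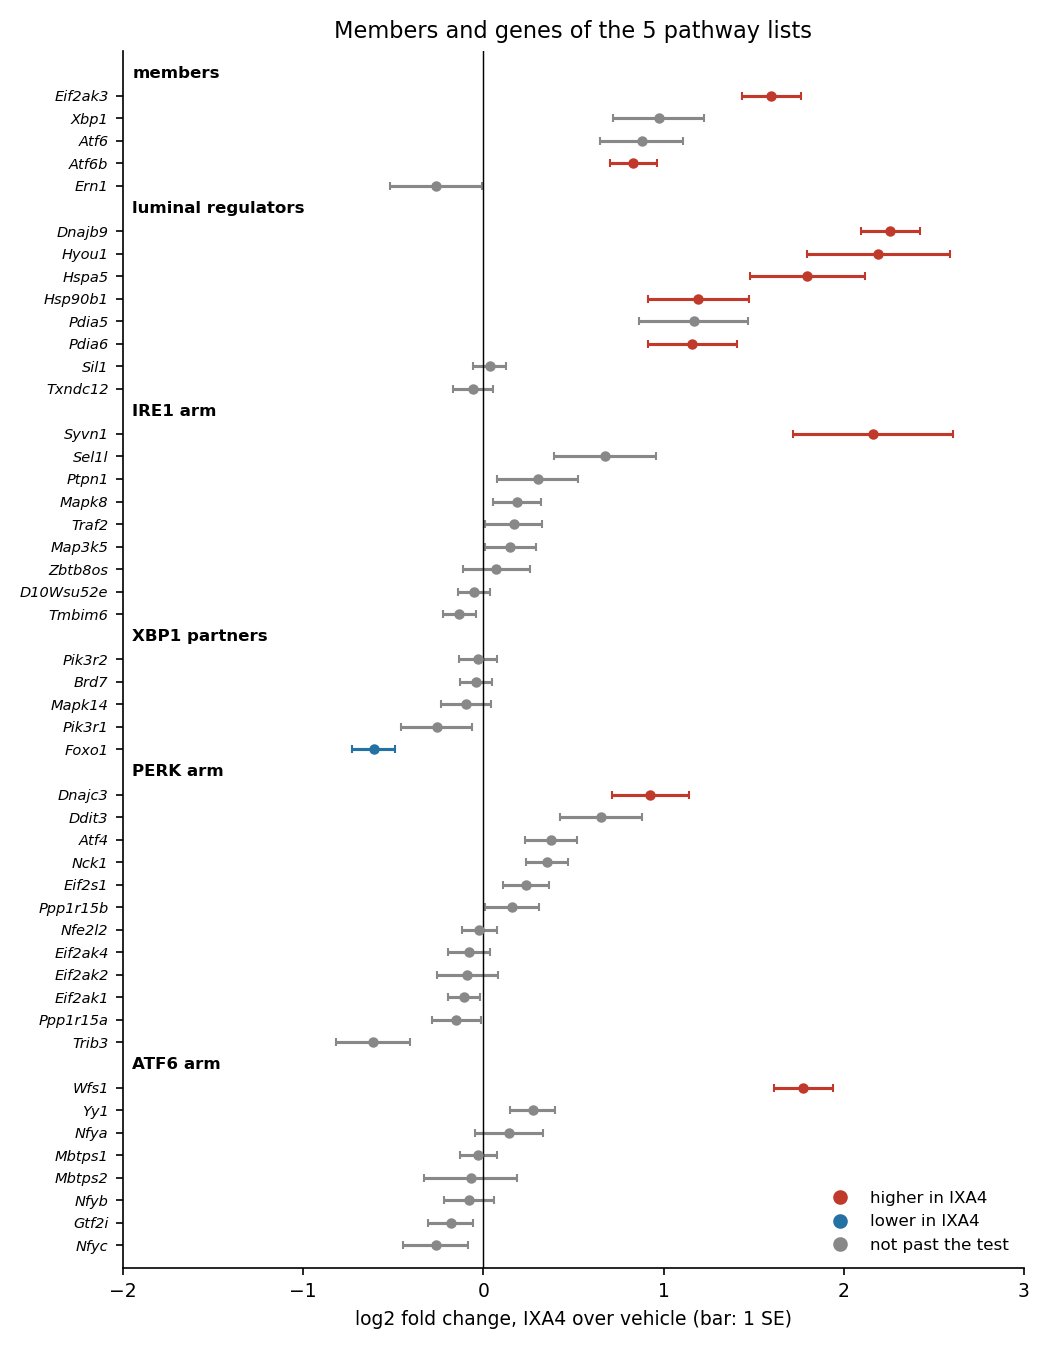
Log2 fold change of IXA4 over vehicle (horizontal axis) with 1 standard error for the 5 genes and the 42 tested genes of the 5 lists. Red points are higher and the blue point lower at an adjusted p under 0.05 (edgeR, n = 4 per group), and grey points did not pass. Eif2ak3 and Wfs1 have short error bars at 1.60 and 1.78, and most genes of the PERK and ATF6 arms lie near 0.

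The genes most like each of the 5 across the 8 libraries were ranked by Pearson's r of log2 CPM among 11451 other genes with a mean of at least 1 CPM. Both groups enter this measure, so it holds the difference between groups as well as that within them. Among the nearest to Eif2ak3 were Sec22b (r = 0.988), a SNARE of ER to Golgi transport, Birc2 (0.986), Ficd (0.985), an enzyme that modifies BiP, and Ufl1 (0.984). Nearest to Atf6b were Slc35b1 (r = 0.994), a nucleotide transporter of the ER, Srprb (0.993), a subunit of the receptor for the signal recognition particle, Bag3 (0.992), Tfg (0.991) and Srp54a (0.990). Nearest to Atf6 were Arf1 (r = 0.991), Calu (0.988), Clptm1l (0.987), Caskin2 (0.982) and Clint1 (0.979). Nearest to Xbp1 were Shc1 (r = 0.992), the fibrinogen chain genes Fgg (0.989) and Fga (0.984), Mtap7d1 (0.986) and Bcl3 (0.984). Nearest to Ern1 were Ankrd26 (r = 0.969), Tmco3 (0.964), Dna2 (0.963), Rhot1 (0.963) and C630004H02Rik (0.953), with log2 fold changes between -0.20 and -0.09. The 4 genes named for Eif2ak3 and the 5 named for Atf6b were themselves higher with IXA4 by edgeR's test. Over all genes tested 3.64% were called higher. Since both groups entered r, genes picked for likeness to a called gene tend to be called too, so these calls are no separate result. Among those nearest to Xbp1 only Fga and among those nearest to Atf6 only Calu passed. The 5 nearest to Ern1 had adjusted p of 0.630 to 0.859 (edgeR).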

How the data were processed

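Bulk RNA-seq counts from the livers of 4 DIO mice given IXA4 and 4 given vehicle were used. Single-end reads had been aligned by the authors to mouse build 37 (DNAstar Lasergene SeqManPro) and counted per gene symbol (ArrayStar, QSeq). The values deposited are raw counts of reads, in whole numbers, for 26166 symbols in 8 libraries. The annotation release, strand setting and handling of reads that match several genes were not given in the sources. A second table holds the comparison made by the authors (DESeq, version not given) with group means, fold changes and p-values, and was not used. Columns were assigned to groups from their headings and could not be matched to single animals.

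Low genes were removed with filterByExpr in edgeR (minimum count 10, total 15), which left 12427. After TMM scaling, the quasi-likelihood F test of edgeR (glmQLFit, robust) was run with no covariate, with Benjamini-Hochberg adjustment over all genes tested and a threshold of 0.05. Each standard error (SE) is that implied by the F statistic. CPM are counts relative to the normalized library size, and log2 CPM used a prior count of 2. RPKM divide CPM by the union of GENCODE exons on NCBIM37, the same assembly, matched by symbol. No exon of another annotated gene overlapped those of the 5 genes. Ratios between genes were compared over libraries by exact permutation. Promoter sequences were taken from RefSeq (GRCm38.p6), where 4 of the 5 genes were matched. Other settings were scaling by the size factors of DESeq2 or by total counts, leaving out the filter or asking for 10 counts in every library, the Wald test of DESeq2, a prior count of 0.5, raw counts, the length of the longest transcript, and each library left out. The text names members of the 5 gene lists and of the marker lists, and the 5 genes most similar to each gene, of which 1 is not reported here. The 5 genes and all lists were chosen with earlier results of these data known. Each library is a separate mouse per the labels, and floors cover counting error only. Tools were R 4.3.3, edgeR 4.0.16, DESeq2 1.42.0, Python 3.11.15, scipy 1.17.1 and matplotlib 3.10.9.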

Additional observations from a re-analysis of the deposited data

Results flagged for a closer look

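In 4 of 114 groups of 4 libraries examined for the 5 genes, their pairwise ratios and the listed genes, 1 library was far from the other 3 by Dixon's criterion at 95%, which chance meets in about 1 in 20 groups. Pdia6 was at 385 CPM in IXA4 replicate 4 and at 172 to 198 CPM in the other IXA4 libraries. Hsp90b1 was at 2632 CPM in IXA4 replicate 4 and at 1073 to 1284 CPM in the others. Sel1l was at 48.5 CPM in vehicle replicate 2 and at 40.6 to 41.6 CPM in the other vehicle libraries. Nfyc was at 3.87 CPM in vehicle replicate 4 and at 3.25 to 3.33 CPM in the others. None of the 5 genes that the report describes and none of their ratios met the criterion, and the reason for these values was not tested.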

How the results depend on the processing

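No paired analysis was run, since the groups are different mice and the labels name no pairs. The columns could not be matched to single animals, and the replicate numbers of the IXA4 labels are not those of the columns. Eif2ak3 and Atf6b passed and Ern1 did not pass under every setting run. DESeq2 called Xbp1 (log2 fold change 0.97, adjusted p = 6.79e-04) and Atf6 (0.88, adjusted p = 0.00230). DESeq2 called 636 genes higher where edgeR called 452, and 256 genes lower where edgeR called 123. With no filter on low counts, 2 list genes were higher in place of 8. With each library left out the log2 fold change was 0.80 to 1.17 for Xbp1, 0.66 to 1.06 for Atf6, 0.71 to 0.92 for Atf6b, 1.497 to 1.72 for Eif2ak3 and -0.47 to -0.06 for Ern1, the genes higher numbered 261 to 613 and those lower 43 to 162, and the list genes higher 2 to 9. The lowest counts over all genes came without vehicle replicate 1. The difference in log2 ratio was then -1.30 to -0.99 for Ern1 to Xbp1, -1.34 to -0.90 for Ern1 to Atf6, -1.24 to -0.95 for Ern1 to Atf6b, -2.09 to -1.71 for Ern1 to Eif2ak3, -0.82 to -0.55 for Xbp1 to Eif2ak3 and -0.85 to -0.71 for Atf6b to Eif2ak3. None could pass, as 3 libraries against 4 allow no smaller exact p than 0.0571. Of the ratios that did not pass, Atf6 to Eif2ak3 was lower throughout, at -0.90 to -0.62, and the other 3 changed sign, at -0.047 to 0.18 for Xbp1 to Atf6, -0.049 to 0.22 for Xbp1 to Atf6b and -0.11 to 0.14 for Atf6 to Atf6b. Over the length of the longest transcript, mean RPKM became 42.2 for Xbp1 in IXA4 livers and 21.5 in vehicle livers, and 5.83 for Eif2ak3 in IXA4 livers, with the order of the means unchanged in both groups. The cause of these shifts was not tested. Counts for the 5 genes ranged between 124 and 2201 in a library, with the lowest for Eif2ak3 in vehicle livers, at 124 to 196 counts.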
